A study of Mus musculus with 21 samples.

Results

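The genes described here are 36 mouse genes known for their induction by type I interferon, taken by name. They were chosen with earlier results of these data known. Of these, 34 were among the 24455 gene symbols of the deposited count table, and Mx1 and Mx2 were not analysed here. They were followed through 21 single-cell RNA libraries (25991 cells) whose transcripts were counted by their unique molecular identifiers (UMIs). Of these libraries, 16 held mouse embryonic fibroblasts (MEFs) given sets of haematopoietic transcription factors by lentivirus, 2 held untransduced wildtype MEFs sorted only as live cells, and 3 held splenic dendritic cells (DCs) of wildtype genotype.

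The factor sets were PI8 (Pu.1 and Irf8), PIB (PI8 with Batf3), PI4 (Pu.1 and Irf4), PIP (PI4 with Prdm1), SI8 (Spib and Irf8) and SII (Spib, Irf8 and Ikzf2). Every set was given to MEFs of genotype Clec9aCre/Cre Rosa26stopflox-tdTomato/tdTomato, the Clec9a line, and live tdTomato+ cells were sorted. SI8 and SII were also given to MEFs of genotype hCD2Cre/WT Rosa26stopflow-YFP/WT, the hCD2 line, and live YFP+ cells were sorted. The reporter is switched on by Cre driven from a Clec9a or human CD2 promoter, so the sorted cells are those in which that promoter had been active, while the control MEFs had no such selection. Each set and line was collected at 3 and at 9 days after transduction, as 1 library per time. Splenic type 1 conventional DCs (cDC1) were sorted as CD11c+MHC-II+CD8alpha+, type 2 (cDC2) as CD11c+MHC-II+CD11b+ and plasmacytoid DCs (pDC) as CD11c+SiglecH+B220+BST2+, with 1 library each. The labels name no separate cultures or animals, so the spread behind each p-value is that between these libraries and may be technical only.

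Type I interferons, among them interferon beta encoded by Ifnb1, bind a receptor made of IFNAR1 and IFNAR2. The receptor activates the kinases JAK1 and TYK2, which phosphorylate STAT proteins, among them STAT2, and a complex of these with IRF9 binds the interferon-stimulated response element (ISRE) near its target genes. The products block viruses at many steps. IFIT proteins bind viral RNA, and some OAS proteins lead to the activation of RNase L. ISG15 is attached to other proteins as a small modifier, and IFITM proteins act in membranes against viral fusion. Fibroblasts are known for making interferon beta when they sense viral nucleic acids, and pDCs for secreting large amounts of interferon alpha.

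The ISRE is shown first because it is the feature by which these genes are known to be read out. Promoter windows from RefSeq (GRCm38.p6, the mm10 build, 250 bases before to 50 bases after a transcription start) were available for 27 of the 34 genes. A core ISRE was searched on both strands as GAAA, then any 2 bases, then GAAA. It was found in 14 of the 27 genes (51.9%) and in 1079 of 27025 genes with a window in the whole table (3.99%). A composite ETS-IRF element, GGAA, then any 2 bases, then GAAA, which can overlap an ISRE, was found in 3 of 27 genes (11.1%) and in 3.16% of all genes. A GAS element, TTC, then any 3 bases, then GAA, known from genes induced by interferon gamma, was found in 7 of 27 genes (25.9%) and in 9.55% of all genes. In Stat2 the ISRE and ETS-IRF matches overlapped. Matches describe the letters of these windows and are not measured binding sites.

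The stretches below are those of some of the genes with a core ISRE, 5′ to 3′ on the strand of the gene. The core ISRE letters (or their complement) are in capitals.
Isg15 (chr4:156200850-156200921, minus strand): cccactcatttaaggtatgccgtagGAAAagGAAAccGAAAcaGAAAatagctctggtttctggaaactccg
Ifit1 (chr19:34640760-34640838, plus strand): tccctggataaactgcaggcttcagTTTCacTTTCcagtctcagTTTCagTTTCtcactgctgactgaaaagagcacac
Ifit3 (chr19:34583348-34583441, plus strand): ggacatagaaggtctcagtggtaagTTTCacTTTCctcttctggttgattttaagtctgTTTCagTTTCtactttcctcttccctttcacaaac
Oas3 (chr5:120777700-120777759, minus strand): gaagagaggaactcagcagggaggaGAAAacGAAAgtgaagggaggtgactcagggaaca
Ifitm2 (chr7:140955973-140956032, minus strand): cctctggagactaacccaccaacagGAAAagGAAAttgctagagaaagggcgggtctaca
Trim30a (chr7:104465195-104465254, minus strand): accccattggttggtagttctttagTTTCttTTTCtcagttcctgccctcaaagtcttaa
Stat2 (chr10:128270251-128270310, plus strand): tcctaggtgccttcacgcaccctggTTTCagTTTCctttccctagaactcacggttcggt
Isg15 held 3 overlapping matches, which began 78, 72 and 66 bases before the start, and Ifit1 and Ifit3 held 2 each. The stretch printed for Ifit3 was also found, letter for letter over 94 bases, before its neighbour Ifit3b (chr19:34607744-34607837). Whether reads were shared between these near-identical genes was not tested. Isg15, Ifit1, Ifit3, Oas3 and Ifitm2 fell in SII, whereas Trim30a and Stat2 did not (results below), so genes of both kinds carried the letters of the element. Of the genes with a core ISRE that are not printed, Ddx58, Ifih1, Ifit3b, Ifitm3, Oas1a and Rsad2 also fell, and Eif2ak2 was not called.

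Libraries differed in depth and state before any comparison. Totals ran from 2291128 to 89394715 UMIs and median UMIs per cell from 2765 to 82866. Levels are given as CPM, the UMIs of a gene as a share of all UMIs of its library on the usual CPM scale. CPM are not scaled for library composition, whereas the fitted log2 fold changes are, so small differences can disagree in direction. The library labelled PI8 day 9 did not look like the other transduced fibroblasts: its 15 fibroblast markers summed to 19.2 CPM, against 1024 to 5477 CPM in the other transduced libraries and 26874 and 27209 CPM in MEF. Its T or NK cell markers summed to 140.9 CPM, against at most 1.26 CPM in the other transduced libraries. Nearly all of that sum was 1 gene, Nkg7 (140.1 CPM). Cd3e and Ncr1 had 0 CPM in every transduced library, and Cd3d and Klrb1c at most 0.323 CPM, so the markers do not name a cell type. Results that rest on this library are given with and without it. The SI8 libraries of the hCD2 line were shallow (medians 2765 and 2786 UMIs). In them 8.32% and 10.81% of UMIs came from Gm42418, AY036118 and Lars2, transcripts followed here as signs of RNA quality, against 0.08% in each MEF library. Of 210 pairs of libraries 64 shared cell barcodes, at most 4 per pair.

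Interferon stimulated transcripts were already abundant in untransduced MEFs. The 34 genes summed to 14005 and 13841 CPM in the MEF libraries. In the transduced sets other than SII the sums ran from 7688 CPM (SI8 hCD2 line day 9) to 17856 CPM (SI8 Clec9a line day 3), with the library labelled PI8 day 9 apart at 2929 CPM. The 4 SII sums were 3466 CPM (day 3) and 3720 CPM (day 9) in the Clec9a line, and 2214 and 3884 CPM in the hCD2 line. Splenic cDC1 stood at 1271 CPM, pDC at 1841 CPM and cDC2 at 4604 CPM. All SII sums therefore lay below every transduced library of the other sets except the one labelled PI8 day 9.

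**Figure D1:**
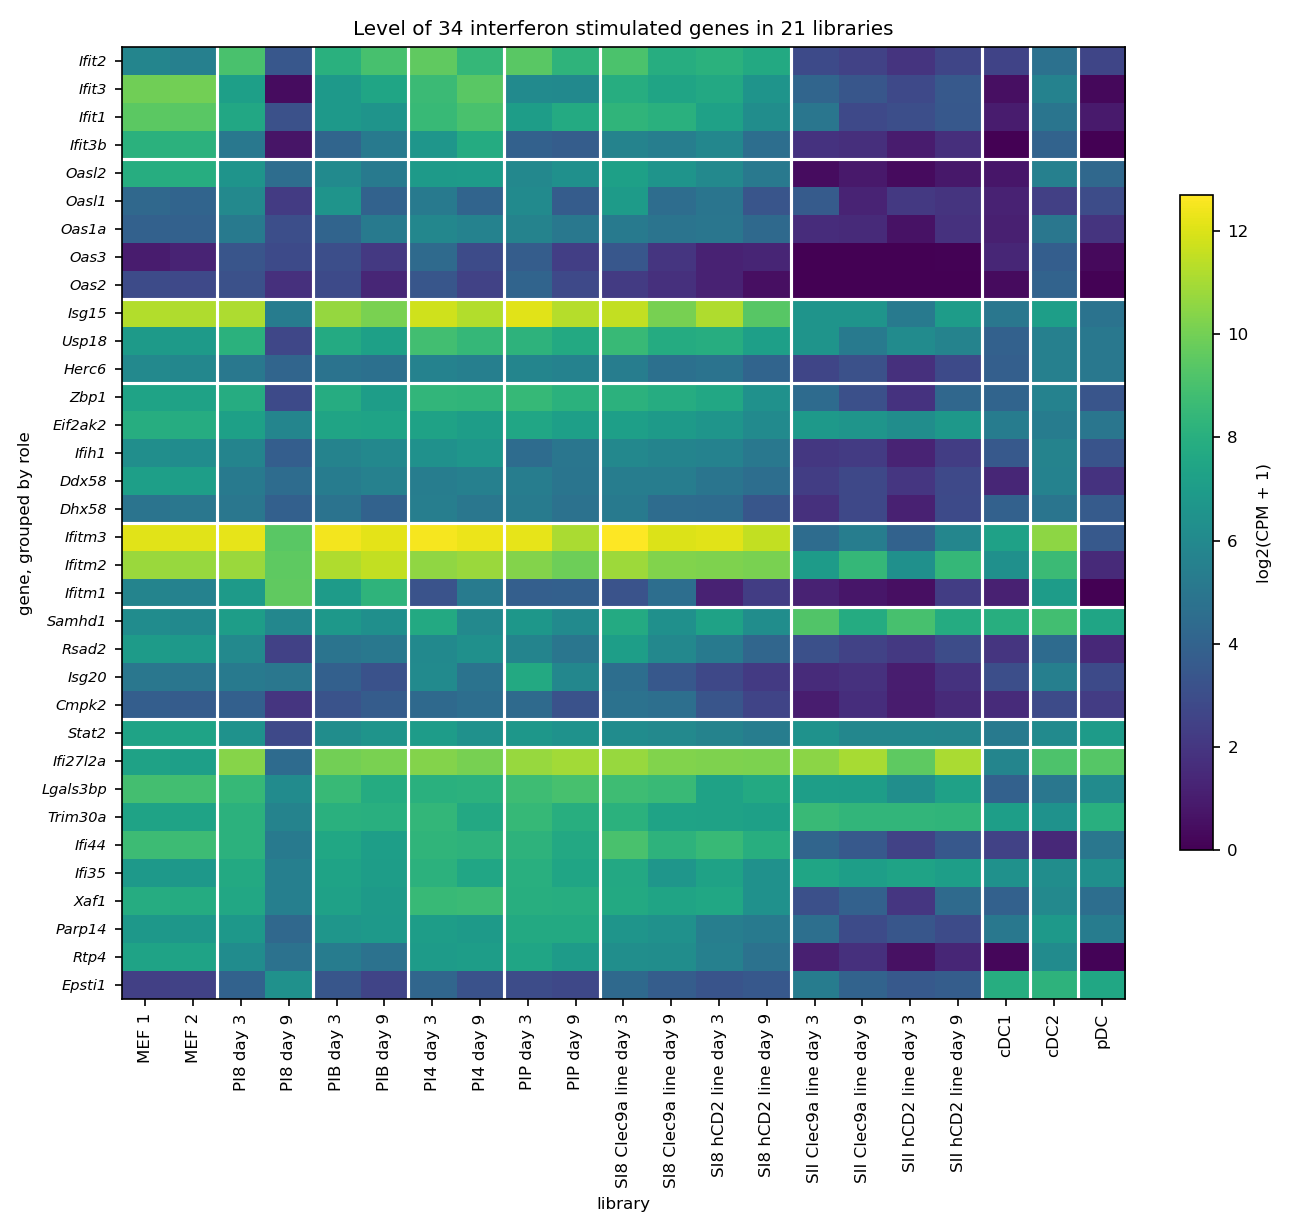
Levels of the 34 genes, as log2(CPM + 1) by colour, with genes as rows grouped by role (from the top: Ifit, OAS, ISG15 system, sensors with PKR, Ifitm, nucleotide and nuclease enzymes, Stat2, others) and the 21 libraries as columns. The 4 SII columns are dark for most genes. Ifi27l2a, Samhd1, Trim30a and Ifi35 are among the rows that stay bright there, as are Ifitm2, Lgals3bp, Eif2ak2 and Stat2.

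Adding Ikzf2, the gene of the zinc finger factor HELIOS, to Spib and Irf8 went with a broad loss of interferon stimulated transcripts. Of the 34 genes, 27 were lower and 2 higher in SII than in SI8. In this comparison 2685 of 14172 genes were lower (18.9%) and as many higher (18.9%). The median log2 fold change of the 34 genes was -3.39, and that of all genes tested 0.04. The fit was edgeR's quasi-likelihood test over 4 against 4 libraries with day and line as terms. Calls were made where the p-value, adjusted by Benjamini-Hochberg over all genes, was below 0.05. All 4 Ifit genes, all 5 OAS genes, Isg15, Usp18 and Herc6, 4 of 5 sensors, all 3 Ifitm genes, 3 of 4 nucleotide and nuclease enzymes and 5 of 9 other genes fell.

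Ifitm3, whose product keeps enveloped viruses from fusing in endosomes, showed the pattern most plainly. In the Clec9a line it stood at 6605 CPM (day 3) and 4201 CPM (day 9) with SI8, and at 21.6 and 40.2 CPM with SII. The hCD2 line gave 4522 and 2928 CPM in SI8 and 15.0 and 55.5 CPM in SII. The groups were far apart, and SI8 was 305.6, 104.4, 302.0 and 52.7 times higher in the 4 matched pairs. The fitted log2 fold change was -7.54 ± 0.56 (SE worked out from the F statistic, adjusted p = 0.000211).

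The OAS genes, some of whose products make the short oligoadenylates that switch on RNase L, all fell. Oasl2 was read at 145.6, 93.3, 62.4 and 33.7 CPM in SI8 (Clec9a line day 3 and day 9, then hCD2 line day 3 and day 9). In SII it was read at 0.324, 0.823, 0.276 and 0.755 CPM in the same order, a log2 fold change of -7.53 ± 0.55 (adjusted p = 0.000204). Every SII library lay below every SI8 library for Oasl2. Oas3 ranged from 1.31 to 9.73 CPM in SI8 and from 0 to 0.0492 CPM in SII, values that rest on 5 UMIs in all 4 SII libraries together against 901 in SI8. The ratio of pooled CPM was 409.6 (95% counting interval 174.9 to 1264), and the fitted log2 fold change was -7.57 ± 0.87 (adjusted p = 0.000994). For Oas2, with 3 UMIs in SII and 361 in SI8, that ratio was 273.5 (92.8 to 1332) and the fitted value -7.40 ± 0.73 (adjusted p = 0.000527). Both genes were thus near the detection limit in SII, and their fitted values depend on the prior count.

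Ifit2, an RNA-binding inhibitor of viral translation, had 538.5, 238.7, 278.0 and 206.2 CPM in SI8 and 2.72 to 6.26 CPM in SII, with the SI8 libraries in the order used for Oasl2. The log2 fold change was -6.32 ± 0.38 (adjusted p = 9.98e-05), with no overlap between the groups. Rtp4, a chaperone of membrane receptors, fell to 1.39 CPM on average from 55.7 CPM (log2 fold change -5.73 ± 0.42, adjusted p = 0.000204). Ifi44, an interferon-induced cytoplasmic protein, came next (-5.42, adjusted p = 0.000200).

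Isg15, which encodes the ubiquitin-like modifier, kept a measurable level in SII. It stood at 2961, 1074, 2340 and 660.4 CPM in SI8 and at 93.9, 92.3, 36.8 and 128.2 CPM in SII. SI8 was 31.5 and 63.6 times higher at day 3 (Clec9a and hCD2 line) and 11.6 and 5.15 times higher at day 9. Its protease Usp18, a brake on the receptor, fell less, by 2.29 on the log2 scale (245.3 ± 98.1 CPM against 62.4 ± 25.8, SD, n = 4 each). Zbp1, a sensor of left-handed nucleic acids, stood at 286.1, 229.9, 192.0 and 85.1 CPM in SI8 and at 20.8, 7.44, 2.61 and 17.9 CPM in SII, again without overlap. The RNA helicases Ifih1 (MDA5), Ddx58 (RIG-I) and Dhx58 (LGP2) fell by 4.33, 3.19 and 2.97 on the log2 scale.

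A minority of the genes did not follow. Samhd1, a dNTP hydrolase that limits reverse transcription, rose in SII by a log2 fold change of 1.23 ± 0.14 (adjusted p = 0.00105). It had 218.1, 82.7, 156.7 and 74.4 CPM in SI8 and 609.5, 224.4, 515.5 and 226.5 CPM in SII, in the order used for Oasl2, and was higher in SII in 4 of 4 pairs and in every SII library. Trim30a, a regulator of innate signalling, rose by 0.55 ± 0.17 (adjusted p = 0.0386), from 277.7, 164.5, 156.3 and 149.2 CPM to 389.8, 320.3, 329.0 and 311.2 CPM. Its call was lost in 9 of 18 alternatives, among them the Clec9a line alone and the omission of any 1 library other than SI8 Clec9a line day 3 (adjusted p 0.00450 to 0.344).

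Ifi27l2a, Ifi35, Stat2, Eif2ak2 and Epsti1 were not called. Ifi27l2a, a small mitochondrial protein gene, had 1722, 1240, 1222 and 1149 CPM in SI8 and 1413, 2122, 733.5 and 2173 CPM in SII, and the groups overlapped. Stat2, the transducer itself, had 71.7, 61.3, 50.6 and 41.1 CPM in SI8 and 86.1, 57.0, 57.0 and 56.1 CPM in SII. Its fitted log2 fold change, scaled for composition, was -0.12. Ifi35 had 136.4 ± 53.7 CPM in SI8 and 154.7 ± 19.3 CPM in SII (SD, n = 4 each). Eif2ak2, the kinase PKR, had 106.3 ± 32.7 and 97.4 ± 17.5 CPM, and Epsti1 12.7 ± 4.64 and 19.4 ± 13.0 CPM. Of these 5 genes, Stat2 and Eif2ak2 carried the core ISRE in their windows, and Ifi27l2a had no window.

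**Figure D2:**
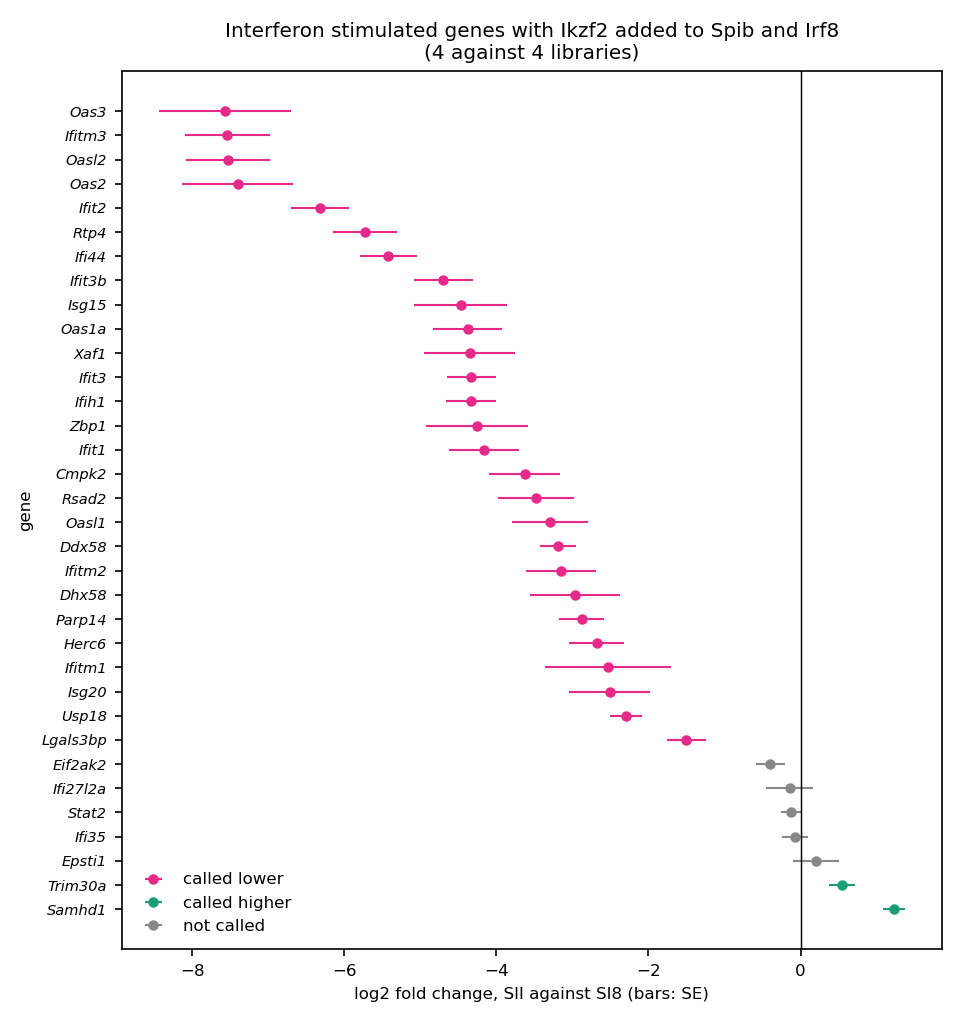
Log2 fold change of SII against SI8 for each of the 34 genes, sorted, with bars for the SE and colours for the call at an adjusted p under 0.05. From Oas3 at -7.57 to Lgals3bp, the smallest loss, the values are called lower, 5 genes near 0 are not called, and Trim30a and Samhd1 are called higher.

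The loss in SII was seen in each alternative setting tried, in which 23 to 28 genes were called lower. Without scaling factors for library composition, the split over all genes moved from 2685 higher and 2685 lower to 4842 higher and 1706 lower and the median of all genes from 0.04 to 0.36. Under that scaling 26 of the 34 genes were lower and 2 higher. Ifitm1 was the least certain of the lower genes (-2.53 ± 0.83, adjusted p = 0.0443), being higher in SII in 1 of 4 pairs, and it was not called in 7 of 17 alternatives (adjusted p up to 0.151). These were the deep cells, the unscaled totals and the omission of SI8 Clec9a line day 3, SI8 hCD2 line day 3, SI8 Clec9a line day 9, SII Clec9a line day 3 or SII hCD2 line day 3.

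Depth, RNA quality and markers of other cells moved with the same contrast. Gm42418, AY036118 and Lars2 took 0.29% to 10.81% of UMIs in SI8 and 0.15% to 0.59% in SII. Of the macrophage markers 7 of 10 tested were lower in SII, where 18.9% of all genes were. Their summed levels were 1437 to 9669 CPM in SI8 and 107.5 to 230.2 CPM in SII, where Fcgr1 had 0 UMIs. The fibroblast markers, of which 7 of 15 were lower, summed to 2150 to 5477 CPM in SI8 and 1024 to 1505 CPM in SII. Their part in the loss of interferon stimulated transcripts was not tested. In the Clec9a line at day 3 the share of the 3 RNA quality transcripts was alike (0.29% in SI8, 0.35% in SII) at medians of 63868 and 39646 UMIs per cell. There the ratio of SI8 to SII was 305.6 for Ifitm3, 448.7 for Oasl2, 86.0 for Ifit2 and 31.5 for Isg15. In the Clec9a line alone 27 of the 34 genes were called lower and 1 higher, where 7.66% of all genes were lower and 3.61% higher. In cells of at least 10000 UMIs 24 of 32 tested were lower and 1 higher, where 9.82% of all genes were lower and 8.45% higher. That fit left out SI8 hCD2 line day 3, which had 11 such cells, under the 20 required. SI8 hCD2 line day 9 entered it with 31 cells.

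Whether the size of the loss differed between days and between lines was tested with interaction terms. For the difference between days, 2 of the 34 genes passed, Ifitm2 (2.06 ± 0.34, adjusted p = 0.0492) and Dhx58 (2.70 ± 0.42, adjusted p = 0.0461), both with a smaller loss at day 9. Over all genes 0.473% were called in each direction. At day 3 Ifitm2 had 1804 and 1217 CPM with SI8 against 124.5 and 80.4 CPM with SII, and at day 9 1230 and 1128 CPM against 343.5 and 345.2 CPM (Clec9a line, then hCD2 line). These calls depended on single libraries. Without any 1 of the 4 SI8 libraries or of the 2 SII day 3 libraries, 0 of 34 genes passed. Without SII Clec9a line day 9, 13 were called higher, where 2.67% of all genes were. Without SII hCD2 line day 9, 2 passed (Dhx58 higher, Parp14 lower), where 0.956% of all genes were higher and 0.671% lower. For the difference between lines 0 of 34 genes and 0% of all genes passed with edgeR. At an unadjusted p under 0.05, 1 of the 34 passed, beside 765 of all 14172. DESeq2 called 0, where 0.332% of all genes were higher and 0.0718% lower.

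Against MEFs, few of these genes passed the test over all transduced libraries, whose factor sets differ. At day 3, 1 of the 34 genes was higher than in MEF and 0 lower, where 8.70% of all genes were higher and 8.38% lower, with a median log2 fold change of -0.05 for the 34 genes and 0.14 for all. At day 9, 1 was higher and 0 lower, where 5.01% of all genes were higher and 5.54% lower, with medians of -0.73 and 0.19. At an unadjusted p under 0.05, 6 of the 34 genes passed at day 3 and 5 at day 9, beside 5423 and 4556 of all 16538 genes tested. DESeq2 called 2 higher and 0 lower at day 3, where 16.1% of all genes were higher and 12.1% lower. At day 9 it called 2 higher and 2 lower, where 13.6% of all genes were higher and 9.05% lower. Without regard to the test, 8 of the 34 genes (Ifit1, Ifit3, Ifit3b, Oasl2, Ddx58, Stat2, Herc6 and Eif2ak2) lay below both MEF libraries in all 16 transduced libraries, as did 12.6% of all genes tested. Epsti1 lay above both in all 16, as did 8.34% of all genes.

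The gene that rose at both times was Ifi27l2a. It stood at 159.0 and 142.0 CPM in MEF, and at day 3 at 733.5 CPM in the lowest library, 1302 ± 328.4 CPM on average and 1722 CPM in the highest (SD, n = 8). All 8 day 3 libraries lay above both MEF libraries (log2 fold change 3.29 ± 1.00, adjusted p = 0.0324). At day 9 the levels were 1352 ± 711.5 CPM (SD, n = 8), with 7 of 8 libraries above both MEF libraries and the library labelled PI8 day 9 below them at 20.7 CPM (3.21 ± 1.00, adjusted p = 0.0477). The day 3 call was lost without either MEF library, and the day 9 call without any 1 library other than PI8 day 9 and SII hCD2 line day 3 (adjusted p up to 0.359). Without the library labelled PI8 day 9 the adjusted p fell to 5.15e-05 at day 3 and 7.63e-05 at day 9.

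Other calls depended on which libraries entered the fit. When the library labelled PI8 day 9 was left out, 5 were higher at day 3 (Ifi27l2a, Samhd1, Trim30a, Ifi35 and Epsti1), and at day 9 1 was higher and 2 lower (Stat2 and Eif2ak2). In that fit 14.3% of all genes were higher and 12.9% lower at day 3, a share close to that of the 34 genes higher, and 10.4% were higher and 9.78% lower at day 9. Without the 4 SII libraries, 5 were higher (Ifi27l2a, Samhd1, Oasl1, Oas3 and Ifit2) and Ddx58 lower at day 3, and at day 9 0 were higher and 2 lower (Ddx58 and Oasl2). Of all genes, 11.5% were then higher and 12.2% lower at day 3, and 6.95% higher and 7.62% lower at day 9.

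Within the Ifit family the genes differed in how MEFs and transduced cells ranked. Ifit3 had 977.3 and 1005 CPM in MEF and a mean of 148.1 CPM at day 3 and 153.2 CPM at day 9, with all 16 transduced libraries below both MEF libraries. Ifit1 had 718.6 and 691.7 CPM in MEF and at most 527.6 CPM in a transduced library, PI4 day 9. Ifit2 went the other way in 11 of the 16 libraries, with 53.5 and 44.8 CPM in MEF, 387.6 CPM on average at day 3 (6 of 8 libraries above both MEF libraries) and 205.1 CPM at day 9 (5 of 8). None of these differences passed the test over all 18 libraries (adjusted p 0.199 to 0.468 for Ifit2 and Ifit3).

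**Figure D3:**
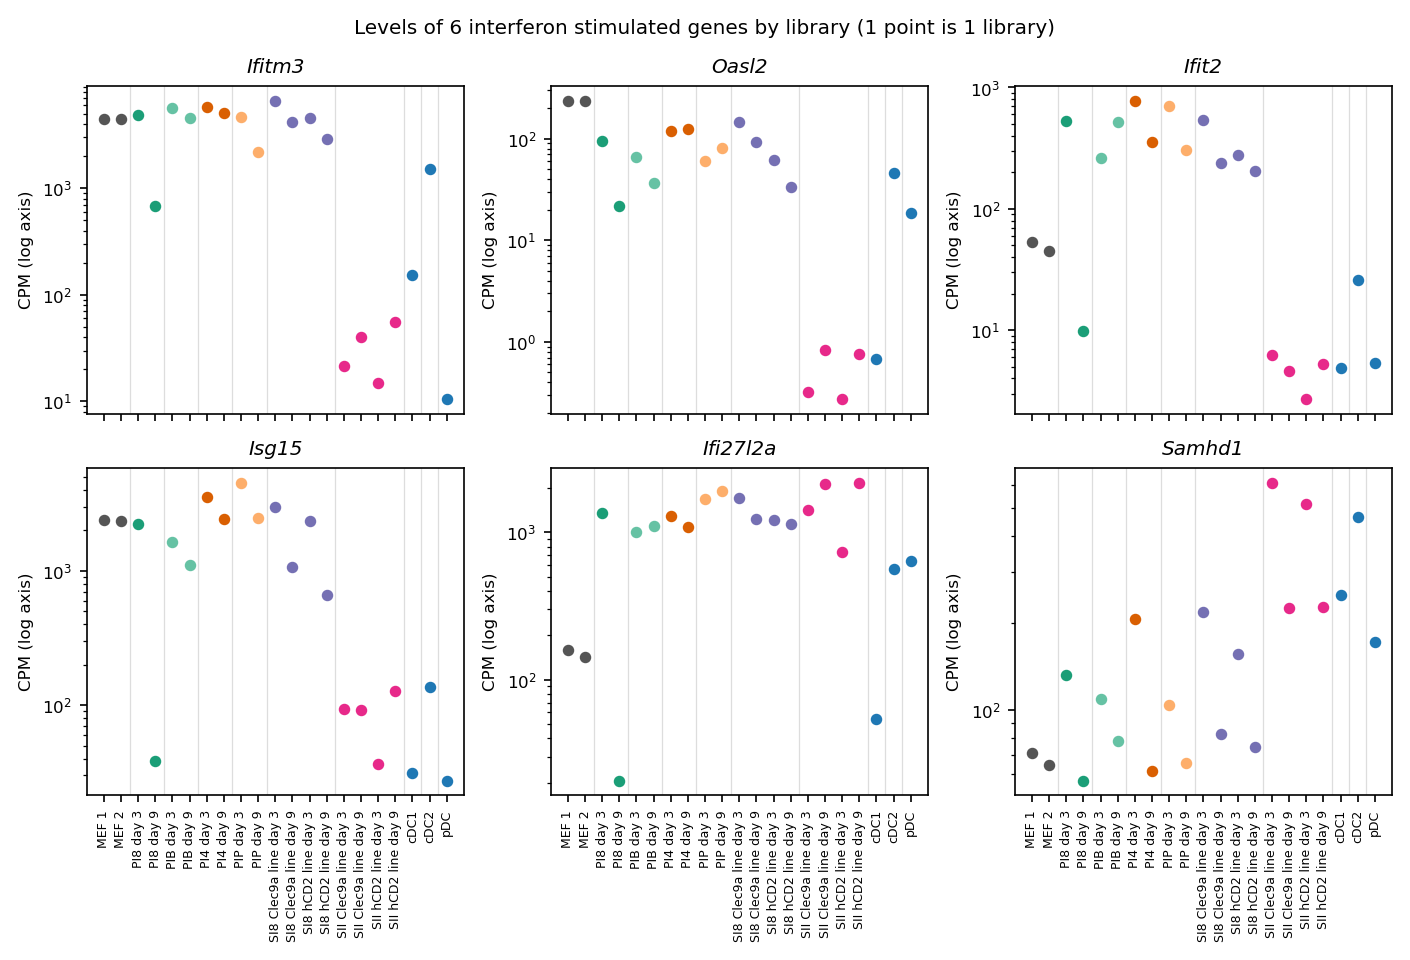
CPM on a log axis of Ifitm3, Oasl2, Ifit2, Isg15, Ifi27l2a and Samhd1, with 1 point for each of the 21 libraries and colours by factor set. SII points lie below SI8 points for the first 4 genes, while Ifi27l2a is above MEF in all transduced libraries but the one labelled PI8 day 9, and Samhd1 is higher in SII than in SI8.

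Between day 9 and day 3 of the same set and line, Samhd1 was lower at day 9. It fell in 8 of 8 pairs, with a log2 fold change of -1.26 ± 0.15 (108.8 ± 72.5 against 256.3 ± 195.1 CPM, SD, n = 8 each, adjusted p = 0.0305). It was the 1 gene of the 34 called lower, and 0 were called higher. Over all genes 0.0365% were lower and 0.0438% higher, and the median was -0.50 for the 34 genes and 0.01 for all. Oasl1, a negative regulator of Irf7 translation, had 10.3 CPM at day 9 and 53.5 CPM at day 3 on average (lower in 8 of 8 pairs, adjusted p = 0.0681).

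These counts depended on which libraries entered the fit. Without PI8 day 3 or without PI8 day 9, which removes that arm from the contrast, 7 genes were lower, namely Samhd1, Oasl1, Oas2, Oas3, Usp18, Trim30a and Ifi35, where 4.67% and 5.23% of all genes were lower. Without any 1 library of PI4, SI8 or SII, 0 were called, and without the pairing by arm 0 were called.

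Another 4 comparisons changed the set by its factors. With Batf3 added to PI8, 0 of the 34 genes and 0% of all genes were called with edgeR. At an unadjusted p under 0.05, 2 of the 34 passed, beside 2643 of all 13702. DESeq2 called 1 lower, where 5.87% of all genes were lower. With Prdm1, which encodes the repressor BLIMP1, added to PI4, 0 of 34 and 0.190% of all genes were called. Unadjusted, 3 of the 34 passed, beside 1422 of all 13702. DESeq2 called 1 lower, where 3.11% of all genes were lower. For PI8 against SI8 in the Clec9a line, 0 of 34 and 0% of all genes were called. Unadjusted, 3 of the 34 passed, beside 2355 of all 13702. DESeq2 called 1 higher, where 4.01% of all genes were higher. For the Irf4 sets (PI4 and PIP) against the Irf8 sets (PI8 and PIB), 0 of 34 and 0.00723% of all genes were called. Unadjusted, 9 of the 34 passed, beside 999 of all 13840. DESeq2 called 4 higher and 1 lower, where 1.25% of all genes were higher and 0.759% lower. Each side of the first 3 comparisons had 1 library per day, so their p-values do not measure the spread between transductions.

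The 2 libraries labelled PI8 stood far apart and decided the comparisons that used them. Isg15 had 2217 CPM in PI8 day 3 and 38.7 CPM in the library labelled PI8 day 9, and Ifit3 had 141.3 and 0.323 CPM. Ifitm1 went the opposite way, with 117.9 CPM at day 3 and 777.5 CPM in the library labelled day 9. With the latter as the only PI8 library, 21 of the 34 genes were higher in PIB and 1 lower (Epsti1), where 28.1% of all genes were higher and 21.5% lower. Against SI8, 2 of the 34 were then higher and 25 lower, where 21.5% of all genes were higher and 28.7% lower. With PI8 day 3 as the only PI8 library, 0 of the 34 genes were called in either comparison, with 15 called over all genes for PIB and 6 for SI8.

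Between PIP and PI4 the widest gaps were those of Ifit3, its near copy Ifit3b and Ifih1, which did not pass the test over all arms. Ifit3 had 397.7 and 699.4 CPM in PI4 at day 3 and day 9 and 65.5 ± 0.703 CPM in PIP (SD, n = 2, log2 fold change -3.05 ± 1.48, adjusted p = 0.528). Ifit3b had 101.0 and 222.9 CPM with PI4 against 14.3 and 12.4 CPM with PIP, and the sensor Ifih1 had 84.5 and 102.1 against 21.1 and 30.2 CPM. Without either PI8 library these 3 genes were called lower, where 3.28% to 3.33% of all genes were. Isg15 did not share the direction, with 3516 and 2411 CPM for PI4 against 4510 and 2467 CPM for PIP. Isg20, an exonuclease, had 65.4 and 27.5 CPM for PI4 against 209.1 and 58.3 CPM for PIP. Gm42418, AY036118 and Lars2 took 1.17% and 3.47% of UMIs in PI4 and 0.32% and 0.68% in PIP, and their part in these values was not tested.

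Between the Irf4 and Irf8 sets, 7 of the 34 genes did not overlap: Isg15, Rtp4, Xaf1, Parp14, Herc6 and Zbp1 stood higher with Irf4, as did 1.83% of all genes tested, and Ifitm1 lower, as did 4.28%. The median log2 fold change was 1.03 for the 34 genes and -0.03 for all genes (0.70 and 0.01 without the library labelled PI8 day 9). Rtp4 had 124.6, 132.9, 172.4 and 125.9 CPM in the PI4 and PIP libraries and 70.7, 26.5, 39.8 and 26.8 CPM in the PI8 and PIB libraries. Ifitm1 had 8.47, 37.5, 13.1 and 14.0 CPM with Irf4 and 117.9, 777.5, 124.6 and 307.6 CPM with Irf8. Of these 7 genes none passed adjustment over all genes with edgeR (adjusted p = 0.659 for Rtp4 and 0.410 for Ifitm1). Between the hCD2 and the Clec9a line of SI8 and SII, 0 of the 34 genes and 0.0212% of all genes were called. At an unadjusted p under 0.05, 6 of the 34 passed, beside 688 of all 14172. DESeq2 called 0, where 0.275% of all genes were higher and 0.162% lower.

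An interferon gene, Ifnb1, was itself read in the transduced cells. Of 20 type I and III interferon genes listed, 6 were in the count table. Most interferon alpha genes, among them Ifna1, Ifna2, Ifna4 and Ifna5, were not, so their levels could not be read here. Ifnb1 had 0.278 and 0 CPM in MEF and 20.3 CPM in PI8 day 3. At day 3 and day 9 it had 3.72 and 1.42 CPM in PIB, 23.4 and 73.5 CPM with PI4, and 71.6 and 55.4 CPM with PIP. In SI8 it had 30.6 and 16.1 CPM in the Clec9a line and 13.1 and 5.16 CPM in the hCD2 line. With SII it had 8.58 and 0.240 CPM in the Clec9a line and 2.62 and 0.0657 CPM in the hCD2 line. Ifnb1 was lower in SII than in SI8 in 4 of 4 pairs (-3.88 ± 0.76, adjusted p = 0.00718). Its loss was larger at day 9 by the interaction term (-4.11 ± 0.38, adjusted p = 0.0195), the opposite direction to Ifitm2 and Dhx58. The day 9 SII values rest on 7 and 4 UMIs, and without any 1 of the 4 SI8 libraries 0 genes were called with a larger loss at day 9. Ifnb1 had 0 UMIs in the library labelled PI8 day 9 and in the 3 splenic libraries. Against MEF it was higher in 8 of 8 day 3 libraries (log2 fold change 7.56 ± 3.02, adjusted p = 0.0923), which did not pass the test.

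The share of cells with an Ifnb1 UMI differed between libraries. PIP had a UMI in 53.4% of cells at day 3 (exact Clopper-Pearson 95% interval 50.7 to 56.1) and in 44.4% at day 9. PI4 had one in 15.2% and 33.7%, SI8 of the Clec9a line in 33.0% and 15.3%, and SII in 5.09% and 0.467% (Clec9a line) and 2.65% and 0.179% (hCD2 line), each at day 3 and day 9. In pDC, known for interferon alpha rather than for steady Ifnb1 transcription, 0 of 4169 cells had a UMI, which allows a share of cells with a UMI of up to 0.0720% at that depth. Median depth was 57205 UMIs in PIP day 3, 4022 in PI4 day 3 and 11707 in pDC, and shares of unthinned cells move with depth. In SI8 of the hCD2 line 30 UMIs lay in 29 cells at day 3 and 24 in 21 at day 9, while PIP day 3 had 5441 UMIs in 708 cells. The MEF libraries had a UMI in 0.0978% and 0% of cells, and the part of free RNA in the shares was not tested. The intervals cover counting error only.

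**Figure D4:**
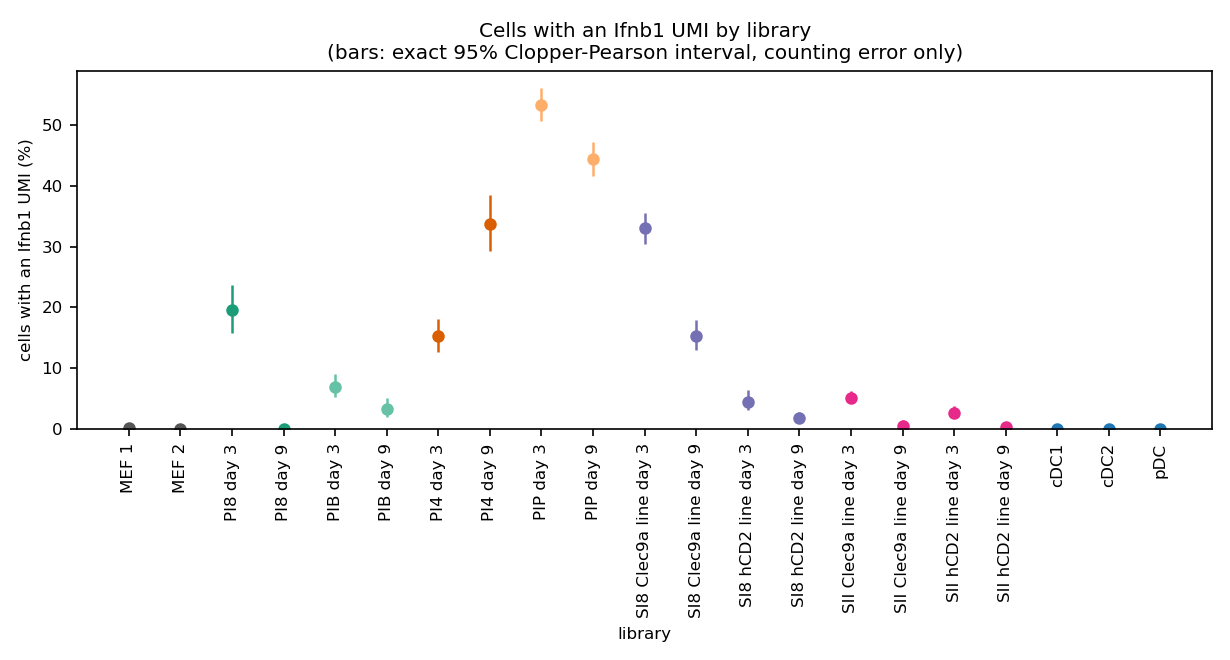
Percent of cells with an Ifnb1 UMI in each library, with bars for the exact 95% Clopper-Pearson interval and colours by factor set. PIP day 3 is highest at 53.4%, SII libraries lie at 0.179% to 5.09%, and the splenic libraries and the one labelled PI8 day 9 are at 0.

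Cells with an Ifnb1 UMI were compared with the other cells of their own library after each cell had been thinned to 2500 UMIs. In SII hCD2 line day 3 the 31 genes other than Ifitm summed to 10.7 ± 6.83 UMIs in cells with Ifnb1 and 5.08 ± 3.64 in the other cells (SD over cells). In SII Clec9a line day 3 the means were 11.7 and 8.19 UMIs, and in PIB day 3 20.4 and 13.7 UMIs. In PIP day 3 they were 27.7 and 26.2 UMIs, in PI4 day 3 24.4 and 23.7 UMIs, and in SI8 Clec9a line day 3 23.2 and 23.6. PI8 day 3 had 21.4 and 17.5 UMIs, PIB day 9 17.0 and 12.5, and SI8 Clec9a line day 9 15.0 and 12.7. These sums include Ifi27l2a, which was not called in SII against SI8, and its part in them was not tested. Cells with a UMI were often deeper before thinning (64232 against 52806 UMIs at the median in SII hCD2 line day 3, and 40446 against 3800 in PI4 day 3), and cells of 1 library are not replicates, so no test was made.

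The genes of the receptor and its transducers were not among those called lower in SII. Irf9, the DNA-binding partner of STAT2, had 38.5 CPM in SII and 33.0 CPM in SI8 (adjusted p = 0.606). The receptor genes were not called: Ifnar1 had 37.8 and 19.7 CPM (adjusted p = 0.0894) and Ifnar2 111.1 and 112.7 CPM (adjusted p = 0.0966). Of 14 tested receptor and transducer genes outside the 34, 6 rose and 0 fell, where 18.9% of all genes were called in each direction. Foremost on the log2 scale were Ptpn6, a phosphatase that dampens signalling (2.62), Socs1, a feedback inhibitor of JAK kinases (1.63), and Jak1 (1.37).

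Irf7, a factor that amplifies interferon transcription, fell from 316.1 to 170.4 CPM on average (log2 fold change -1.11 ± 0.26, adjusted p = 0.0139) and was lower in SII in 3 of 4 pairs. Of the other interferon regulatory factors, Irf3 was higher (0.71) and Irf2 lower (-0.83). Irf8, a delivered factor whose viral and endogenous transcripts were not separated, had 55.4 CPM in SII and 32.0 CPM in SI8 (adjusted p = 0.640).

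Other genes induced by interferon, listed apart from the 34, fell as a group by count in SII. Of 45 tested, 33 were lower and 1 higher (median -1.61), where 18.9% of all genes were called in each direction. The leading genes were Ifitm6 (-8.11 ± 0.46, 0.152 against 29.3 CPM), Oas1g (-7.72 ± 0.78) and Phf11d (-5.99 ± 0.56), and Trim30d was the gene that rose (1.13). Of genes more typical of interferon gamma, 19 of 24 were lower and 1 higher, led by Cxcl9 (-8.42), Tgtp1 (-7.61) and Serping1 (-5.67). Of nucleic acid sensors and adaptors, 4 of 12 were lower, led by Aim2 (-4.65) and the endosomal RNA receptor Tlr3 (-3.88), and Traf3 (0.81) was higher. Of NF-kB and inflammatory targets, 7 of 16 were lower, led by the chemokine Cxcl2 (-7.23), the cytokine Il1b (-6.91) and Cxcl1 (-6.77). Another 3 were higher, close to the share of all genes, namely Birc3 (1.10), Tnfaip3 (0.91) and Nfkb1 (0.84).

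Against MEF at day 3, 8.70% of all genes tested were higher and 8.38% lower. Of nucleic acid sensors and adaptors, 4 of 14 were higher, led by Tlr9 (6.86), Unc93b1 (2.61), which carries endosomal Toll-like receptors, and Mavs (1.04), the adaptor of RIG-I. Receptors and transducers had 1 of 15 higher (Ptpn6, 6.05) and regulatory factors 2 of 9, Irf5 (7.90, 48.7 against 0.219 CPM, adjusted p = 4.26e-06) and the delivered Irf8 (11.46). Irf7 had 403.0 CPM at day 3 and 207.1 CPM in MEF (adjusted p = 0.330), and Irf9 had 40.8 and 66.2 CPM (adjusted p = 0.150). Ifnar1 had 29.5 and 50.5 CPM and Ifnar2 110.3 and 172.6 CPM, and both lay below both MEF libraries in 8 of 8 libraries without passing the test (adjusted p = 0.197 and 0.164). Among other interferon-induced genes 3 of 47 rose and 3 fell, neither count being above the share of all genes. Those that rose were Sp100 (3.84), Phf11b (3.03) and Lgals9 (1.55). Those that fell were the guanylate-binding proteins Gbp7 (-3.15) and Gbp3 (-2.82) and Ifi27 (-2.21). At day 9 the other interferon-induced genes had 1 of 47 higher, Sp100 (3.20), and 4 lower, led by Gbp3 (-2.85), Gbp7 (-2.67) and Pnpt1 (-1.21). Over all genes, 5.01% were then higher and 5.54% lower.

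Single cells were compared after thinning to 2500 UMIs each, on the 31 genes other than Ifitm. Most untransduced MEFs were positive, with 89.7% and 90.3% of cells at 10 UMIs or more and a median of 18. PIP day 3 was highest, at a median of 25 UMIs and 97.9% of cells. In SII the share was 33.1% and 30.6% in the Clec9a line and 11.1% and 36.5% in the hCD2 line (day 3 and day 9), at medians of 4 to 7 UMIs. SI8 had 96.6% and 71.9% in the Clec9a line and 91.2% and 37.5% in the hCD2 line. The share in SI8 hCD2 line day 9 (95% interval 34.7 to 40.3) and in SII hCD2 line day 9 (33.7 to 39.4) overlapped. In the latter Ifi27l2a, which was not called in SII against SI8, gave 2173 of the 3884 CPM of all 34 genes. It also made up much of the sums in the other SII libraries. There it had 1413 and 2122 CPM in the Clec9a line (day 3, then day 9) and 733.5 CPM in the hCD2 line at day 3.

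By gene, the cells showed the same split. Ifitm3 had a UMI in 1397 of 1399 and 650 of 650 thinned SI8 cells at day 3 (Clec9a, then hCD2 line) and in 4.13% and 3.56% of SII cells. Isg15 had one in 96.9% and 98.8% of SI8 cells and in 13.3% and 6.07% of SII cells, beside 6.39% in cDC1 and 5.64% in pDC. Ifi27l2a had one in 86.6% and 93.4% of SI8 cells and in 86.1% and 61.9% of SII cells. Without thinning, at a median of 39646 UMIs, Ifitm3 was found in 38.4% of the SII cells of the Clec9a line at day 3, beside 7.34% of pDC at a median of 11707 UMIs.

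**Figure D5:**
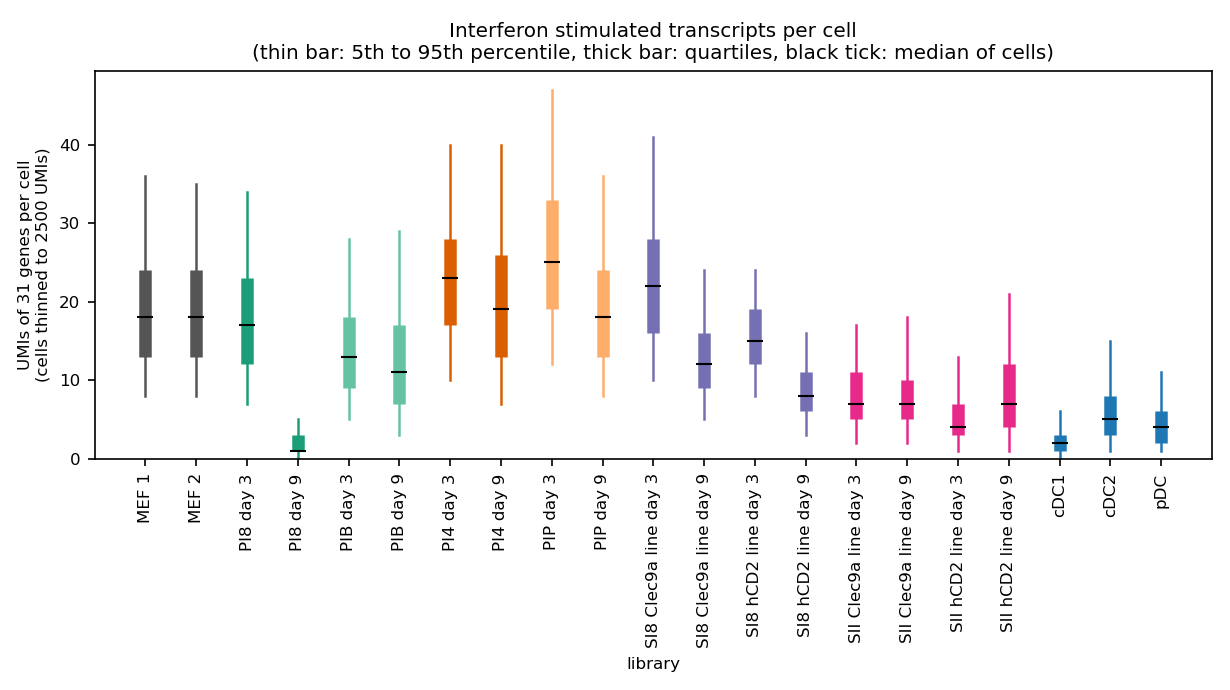
UMIs of the 31 genes other than Ifitm per cell, in cells thinned to 2500 UMIs, by library, with a black tick for the median, a thick bar for the quartiles and a thin bar from the 5th to the 95th percentile of cells. MEFs have a median of 18, PIP day 3 of 25, SII libraries of 4 to 7 and the library labelled PI8 day 9 of 1.

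Among splenic DCs, the 34 genes summed to 4604 CPM in cDC2, 1841 CPM in pDC and 1271 CPM in cDC1. With 1 library per type there is no test, and genes with at least 10 CPM in 1 of the 3 types were set side by side, of which 32 were among the 34. Against cDC1, 25 of 32 were at least 2-fold higher in cDC2 (13.8% of 8734 genes) and 1 lower, Ifi44 (6.68% of genes). Against pDC, 22 were at least 2-fold higher in cDC2 (12.9%) and 3 lower (16.3%), namely Ifi44, Trim30a and Lgals3bp. Between pDC and cDC1, 8 were higher in pDC (23.7%) and 7 lower (11.3%). Of the 32 genes, 12 reached 10 CPM only in cDC2 and so could be counted only as higher there, and Ifi44 reached it only in pDC. Among genes with 10 CPM in both types compared, a setting added after seeing the data, 12 of 18 were higher in cDC2 than in cDC1 (7.59% of all such genes) and 0 lower. On the same terms 7 of 16 were higher in cDC2 than in pDC (6.27%) and 2 lower (10.9%), and 5 of 15 were higher in pDC than in cDC1 (15.9%) and 1 lower (5.46%).

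Single genes differed in size and order between the types. Ifitm3 had 1503 CPM in cDC2, 154.4 CPM in cDC1 and 10.6 CPM in pDC, and Ifitm1 had 127.4, 1.21 and 0 CPM. Rtp4 had 69.7 CPM in cDC2, 0.151 CPM in cDC1 and 0.0753 CPM in pDC. Isg15 had 135.5, 31.3 and 27.5 CPM, and Ifit3 49.2, 0.454 and 0.188 CPM. Ifi27l2a followed another order, with 642.1 CPM in pDC, 563.0 CPM in cDC2 and 54.5 CPM in cDC1. Epsti1 and Samhd1 were higher in all 3 splenic types (187.6 to 296.4 CPM and 172.3 to 465.3 CPM) than in MEF (at most 4.63 and 71.0 CPM). The macrophage markers summed to 1093 CPM in cDC2, 325.5 CPM in cDC1 and 335.6 CPM in pDC, and their part in these differences was not tested.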

How the data were processed

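Transcripts of single cells were counted as UMIs near their 3′ ends. The deposited values are whole-number counts per gene and cell in 1 table. Per the submitters' processing notes, the authors' tools were Seurat and Cell Ranger 6.0.1 and their build mm10; cell filters are not given in the sources used here. The members and lists were chosen with earlier results of these data known.

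Cells with at least 500 UMIs, 200 genes and at most 20% mitochondrial counts were kept, which removed 0 cells, and Scrublet (scanpy 1.11.5) called 178 doublets (0.685%), left out only as an alternative. Counts were summed per library and tested with edgeR 4.0.16 (TMM scaling, filterByExpr, quasi-likelihood F test, two-sided, R 4.3.3), with p-values adjusted over all genes tested. Each SE of a log2 fold change is its absolute value divided by the square root of the F statistic. MEF comparisons used 18 libraries, day and set comparisons 16 with the arm (set and line) as a block, Irf4 against Irf8 sets 8 with day, and SII against SI8 8 with day and line. The pairing by arm comes from the labels. The 2 MEF libraries differed by a chi-square of 2.35 per degree of freedom over 15245 genes and were kept as separate samples. The script was tested on simulated data. DESeq2 1.42.0 was an alternative.

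Named genes were, per comparison, up to 6 called members per direction by size, values in every library for the first 3 and for the member of each role group with the highest mean, non-called members by values only, and up to 3 called genes per direction of each context list, with Irf7, Irf9, Irf8, Ifnb1, Ifnar1 and Ifnar2 in any case. Other genes named were chosen after their values were seen. CPM intervals and limits (3 counts for 0) cover counting error only. Alternatives were another scaling, no low count filter, DESeq2, equal depth, deep cells, no doublets, blocks and the omission of libraries. Chosen after seeing the data were unscaled totals, a newer quasi-likelihood method, the omission of the 4 SII libraries the Clec9a line alone and, for splenic DCs, 10 CPM in both types. Some genes of the context lists are not reported here.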

Additional observations from a re-analysis of the deposited data

Results flagged for a closer look

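Among 60 groups of libraries and gene groups looked at for a library far from the rest, 5 held one, where chance gives about 1 in 20. The 34 genes summed to 2929 CPM in the library labelled PI8 day 9, far below the other libraries of the Irf8 sets. The 31 genes other than Ifitm summed to 2118 CPM in SII hCD2 line day 3, the lowest of the SII libraries. The Ifit genes summed to 1805 CPM in PI4 day 9, the highest of the day 9 libraries. The sensors with PKR summed to 506.6 CPM in PIP day 9, apart from the other libraries of the Irf4 sets. Stat2 had 86.1 CPM in SII Clec9a line day 3, above the other SII libraries.

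The loss in SII differed between days for Ifitm2 (2.06 on the log2 scale) and Dhx58 (2.70) by the interaction term. Ifnb1 differed the other way (-4.11).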

How the results depend on the processing

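Over 34 called results of single genes and 633 alternatives, 565 kept direction and call, 68 kept direction only and 0 reversed. Counts below are of the 34 genes. Percentages in brackets are the share of all genes in the same direction under the same setting. Against MEF at day 3 (1 higher, 0 lower), 2 were higher with DESeq2 (16.1%) and 0 in cells of at least 10000 UMIs (7.43%). Without both PI8 libraries 5 were higher (13.1%), and with the newer quasi-likelihood method 2 (11.2%). With only MEF and day 3 libraries 4 were higher (12.2%). Without the 4 SII libraries 5 were higher (11.5%) and 1 lower (12.2%). At day 9 (1 higher, 0 lower), 0 were higher without the low count filter (2.66%), in deep cells (4.53%) or with only MEF and day 9 libraries (2.63%). DESeq2 gave 2 higher (13.6%) and 2 lower (9.05%), and unscaled totals 1 lower (5.14%). The fit without both PI8 libraries gave 1 lower (8.72%) and that without SII 0 higher (6.95%) and 2 lower (7.62%). Between day 9 and day 3 (1 lower, 0.0365%), DESeq2 gave 5 lower (4.72%) and 1 higher, the latter count not being above the share of all genes. The fit without both PI8 libraries gave 7 lower (5.09%). Deep cells (0.00718%), the fit without SII (0.00752%) and the fit with no replicate block (0%) gave 0 lower. DESeq2 gave 1 lower for PIB against PI8 (5.87%) and 1 lower for PIP against PI4 (3.11%). Without both PI8 libraries 3 were lower for PIP against PI4 (3.25%). DESeq2 also gave 1 higher for PI8 against SI8 (4.01%), and 4 higher (1.25%) and 1 lower (0.759%) for Irf4 against Irf8 sets. For SII against SI8, 1 instead of 2 was higher in deep cells (8.45%) and in the Clec9a line alone (3.61%). With pairs of day and line as a replicate block 27 were lower (15.7%) and 2 higher (14.9%), and the block changed no other call there. For the day interaction (2 higher), 8 were higher without the filter (1.24%), 10 with DESeq2 (5.97%) and 0 in deep cells (0%). At 4-fold, the splenic counts were 0 lower in cDC2 than cDC1 (2.76%), 4 higher in pDC than cDC1 (9.30%) and 1 lower in cDC2 than pDC (6.63%). With 10 CPM in both types compared they were 12 higher (7.59%) and 0 lower (3.68%) in cDC2 than cDC1. They were 5 higher (15.9%) and 1 lower (5.46%) in pDC than cDC1, and 7 higher (6.27%) and 2 lower (10.9%) in cDC2 than pDC.

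Without 1 library at a time the counts ranged from 0 to 5 higher at day 3 and from 0 to 1 higher and 0 to 2 lower at day 9 against MEF. They ranged from 0 to 7 lower between the days, 0 to 21 higher and 0 to 1 lower for PIB against PI8, 0 to 3 lower for PIP against PI4, and 0 to 2 higher and 0 to 25 lower for PI8 against SI8. They ranged from 1 to 2 higher and 26 to 28 lower for SII against SI8, 0 to 1 lower between lines, and 0 to 13 higher and 0 to 1 lower for the day interaction. The widest ranges, for PIB against PI8 and PI8 against SI8, came from the fit that left the library labelled PI8 day 9 as the only PI8 library. Large shares of all genes, given above, were also called in that fit. The causes were not tested. Depth limits Oas2 and Oas3, which passed the low count filter neither in thinned nor in deep cells.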
